A study of Mus musculus with 30 samples.

Results

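The comparison set cells of the group day 5 -12h Dox against cells of the group day 5 -Dox, across all genes, in a mouse embryonic stem cell clone whose Nanog depends on doxycycline. The day 5 -12h Dox cells stayed a further 12 h without doxycycline, and the design text uses them as the time-matched control of a 12 h doxycycline pulse. The day 5 -Dox cells were harvested at day 5 of withdrawal. The arrays were taken by their group labels, 3 in each group, so the comparison uses 6 of the 30 arrays and 2 of the 10 groups of the series. Both groups are the clone NgR, genotype AINV15_Nanog_Rescue, derived from embryonic stem cells that express rtTA, the protein through which doxycycline switches on the Nanog transgene. Both were grown with doxycycline at 1 ug/ml before it was withdrawn, had none at harvest, and grew on a feeder layer of primary mouse embryonic fibroblasts. The labels give neither the hour of each harvest nor any change of medium, nor whether the replicates were separate cultures. The p-values and standard errors therefore measure only the spread between arrays of a group. That spread was pooled over the 10 groups of all 30 arrays, and not taken from the 6 alone. No array came from cells kept on doxycycline over the same days, so a longer time without doxycycline and a longer time in culture cannot be told apart, and all values come from 1 clone.

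Nanog is a homeobox factor that holds mouse embryonic stem cells in self-renewal. Cells that lose this network can leave it towards the embryo's own lineages or towards trophectoderm, the layer that forms the placenta, and extraembryonic endoderm. Placental genes include several imprinted and X-linked ones, which act on fetal and placental growth. Hypoxia-inducible factors switch on genes of glycolysis and of low-oxygen response in many cell types.

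Over the further 12 h, 13 of 24 placental genes rose, with Plac1 and Phlda2 first among all genes, and Myc and 6 of 18 genes of hypoxia and glycolysis rose too. Of 29 feeder fibroblast markers 6 fell, among them the contractile genes Acta2 and Tagln, and the meiotic gene Sycp3 had the largest fall. Nanog itself was not called, although Pou5f1 rose. List members were chosen with earlier results of these data known, and the lists put first were picked after their counts were seen. Such counts are descriptions. A transcript cluster is the set of probes for 1 transcription unit. Of 23385 tested clusters, 773 were called (3.31%), at an adjusted p under 0.05 in limma. Of the 773, 543 were higher in day 5 -12h Dox (2.32%) and 230 were lower (0.984%). Changes are log2 differences, day 5 -12h Dox minus day 5 -Dox, given with their standard errors. They were mostly small, since 630 of the 773 were under 0.5 in size and 3 reached 2-fold.

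The arrays themselves differed in spread, and this bears on each count that follows. Replicates 2 and 3 of day 5 -12h Dox had the widest interquartile ranges of all 30 arrays, 2.94 and 2.93 (log2), while replicate 1 had 2.52. The day 5 -Dox arrays had 2.69, 2.59 and 2.60. The means were 2.79 ± 0.24 in day 5 -12h Dox and 2.63 ± 0.054 in day 5 -Dox (SD, n = 3 each), with p = 0.4 in a two-sided exact permutation test, where the smallest p that 20 assignments allow is 0.1. Replicate 1 of day 5 -12h Dox correlated with replicates 2 and 3 at 0.991 and 0.992 across clusters, below its correlations with the day 5 -Dox arrays, which were 0.994 to 0.995. Among the brightest of 5 equal groups of clusters, formed by level on the other 24 arrays, the median change was 0.05, and 230 rose and 29 fell. Among the dimmest of the 5 it was −0.07, and 12 rose and 42 fell. The part of array spread in the results was not tested beyond these values and the alternatives below.

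The count depended on single arrays. It was 3134 without replicate 1 of day 5 -12h Dox and 140 without its replicate 3, and 262 and 267 without replicates 2 and 3 of day 5 -Dox. With both wide arrays left out, only replicate 1 of day 5 -12h Dox remained in its group, so only sizes of change are given for that fit. A fit of the 6 arrays alone called 19, of which 17 were higher, and all 19 were among the 773. Scaling also moved the split. It was 630 higher and 159 lower after each array was centred on its median, 506 and 421 after quantile normalization, 562 and 770 with the interquartile range as a covariate, and 2272 and 2356 with array weights. The 2 groups did not overlap in any array for 745 of the 773 clusters, against 3762 of all clusters tested (16.1%). Of the 70 called genes that the naming rule chose, 10 kept their call in the fit of 6 arrays, under the other model, scaling and filter settings tried, and with each array left out in turn. They are Acta2, Lgals3, Mbnl3, Myc, Ndrg1, Phlda2, Plac1, Rhox6, Rtp4 and Sycp3, and of these Plac1, Phlda2 and Ndrg1 changed by 2-fold or more. Another 11 lost their call in the fit of 6 arrays but kept it under the other settings and with each array left out in turn. These 11 are Akr1c14, Ankrd37, Bnip3, Bst2, Cdkn1c, Cubn, Ldha, Mmp2, Nrk, Peg10 and Rrm2. With both wide arrays left out, none of the 70 called genes changed sign. For genes whose arrays did not overlap between the groups, replicate 1 alone could not give another sign. The kept signs are therefore no test of the wide arrays. Rtp4, Akr1c14 and Cubn are among the dim clusters, so the setting without those did not test them. The remaining called genes lost their call under at least 1 of the other settings or with 1 array left out. The plot of array spread beside the counts with 1 array left out shows both.

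**Figure D1:**
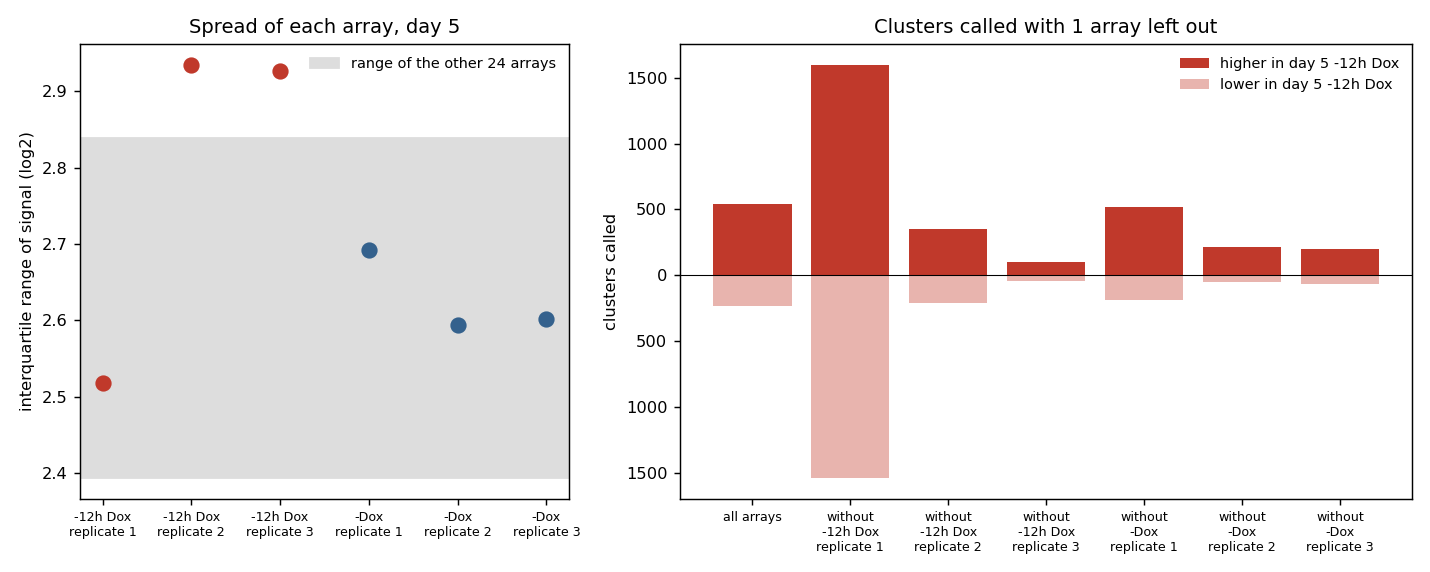
Left, the interquartile range of log2 signal for each day 5 array (points) over the range of the other 24 arrays (grey band). Right, clusters called with all arrays and with each array left out in turn, higher in day 5 -12h Dox above 0 and lower below it. Replicates 2 and 3 of day 5 -12h Dox, at 2.94 and 2.93, lie above the band, and the count runs from 140 to 3134.

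Among placental genes, Plac1 had the largest rise of all. Plac1 is an X-linked gene of the trophoblast. Its signal was 9.48, 9.40 and 10.09 (log2) in day 5 -12h Dox, against 8.10, 7.49 and 8.24 in day 5 -Dox. The groups did not overlap, and the change was 1.71 ± 0.16 (adjusted p = 5.81e-07), or 3.28-fold. Phlda2, an imprinted gene that limits placental growth in mice, had 11.84, 11.51 and 12.15 in day 5 -12h Dox, against 10.49, 10.04 and 10.19 in day 5 -Dox. Every day 5 -12h Dox array stood above every day 5 -Dox array, by 1.59 ± 0.17 on average (adjusted p = 5.66e-06). At day 0 with doxycycline, Phlda2 was already at 11.11, whereas Plac1 was at 6.54. Relative to day 0, Phlda2 stood at −1.45 at day 3 and −0.87 at day 5 -Dox. Part of its rise therefore regained an earlier level. Cdkn1c, the imprinted inhibitor p57 of cyclin-dependent kinases, had 11.22, 11.36 and 11.45 in day 5 -12h Dox, against 10.47, 10.46 and 10.90 in day 5 -Dox (0.73 ± 0.11, adjusted p = 0.000197). Ascl2, an imprinted factor that spongiotrophoblast needs, had 8.23, 8.48 and 8.75 in day 5 -12h Dox, against 7.92, 7.93 and 7.72 in day 5 -Dox (0.63 ± 0.098, adjusted p = 0.000478). Both were separate between the groups.

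Of the 24 genes in the trophectoderm and placenta list, 13 rose and none fell. The median change was 0.36, against −0.02 over all clusters tested and 0.05 among the brightest of the 5 groups by level. The members were chosen with earlier results of these data known, so the count is a description and no independent test. Besides Plac1, Phlda2, Cdkn1c and Ascl2, the homeobox genes Rhox6 (0.85) and Rhox9 (0.72) rose, as did Tfap2c (0.48), which encodes the AP-2 gamma factor of trophoblast. Peg10, a retrotransposon-derived imprinted gene that the placenta needs, rose by 0.43, the receptor gene Fgfr2 by 0.37 and the homeobox gene Msx2 by 0.37. The keratins of simple epithelium, Krt19 (0.55), Krt8 (0.36) and Krt7 (0.22), rose too, and Krt18 was at 0.24 (adjusted p = 0.0778). Cdx2 and Elf5, factors of trophectoderm and trophoblast stem cells, were at −0.07 and −0.08 (adjusted p = 0.730 and 0.655), with Cdx2 between 7.51 and 7.65 in day 5 -12h Dox and between 7.50 and 7.78 in day 5 -Dox. Gata3, Gata2 and Hand1 were at 0.36, 0.28 and 0.34 and were not called. The mean level of the whole list was 9.65 to 9.82 in the day 5 -12h Dox arrays and 9.21 to 9.32 in the day 5 -Dox arrays. The count of risen members was 10 to 16 with 1 array left out, and the median change was 0.30 with both wide arrays left out.

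Imprinted genes as a group divided. Of 16 measured, 5 rose and none fell, with a median of 0.03. Phlda2, Cdkn1c and Peg10 are also in the placental list. The other risen members were the fetal growth factor gene Igf2, at 0.45 ± 0.11 (adjusted p = 0.0288), and Peg3, a zinc finger gene, at 0.37. Igf2 had 12.09, 12.17 and 12.21 in day 5 -12h Dox, against 11.57, 11.54 and 12.02 in day 5 -Dox, so that the groups came within 0.1 of each other. Dlk1, Meg3 and Mest, genes of other imprinted domains, were at 0.02, −0.11 and −0.10. The count was 3 without replicate 1 or 2 of day 5 -Dox and without replicate 2 or 3 of day 5 -12h Dox. The median was 0.01 with both wide arrays left out.

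X-linked genes made up 6 of the 12 largest rises. Beside Plac1 and Rhox6 they were Mbnl3, a muscleblind-like RNA-binding protein (0.99 ± 0.14), Nrk, a kinase of the placenta (0.91 ± 0.14), 3830417A13Rik (0.89 ± 0.17) and Nxf7, a member of the nuclear RNA export family (0.84 ± 0.17). Of all clusters placed on a chromosome, the X held 3.64% of those tested and 6.34% of those that rose. The 12 were picked by the size of their change in these same values. Mbnl3 had 9.19, 9.08 and 9.72 in day 5 -12h Dox, against 8.42, 8.19 and 8.39 in day 5 -Dox (adjusted p = 0.000103). Rtp4, an interferon-inducible chaperone of receptors, rose by 0.95 ± 0.12, and Lgals3, the lectin galectin-3, by 0.84 ± 0.12. Higd1a, a mitochondrial protein, rose by 0.89 ± 0.19 in 1 of its 2 clusters and was at 0.26 in the other (adjusted p = 0.185), so its change is uncertain.

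**Figure D2:**
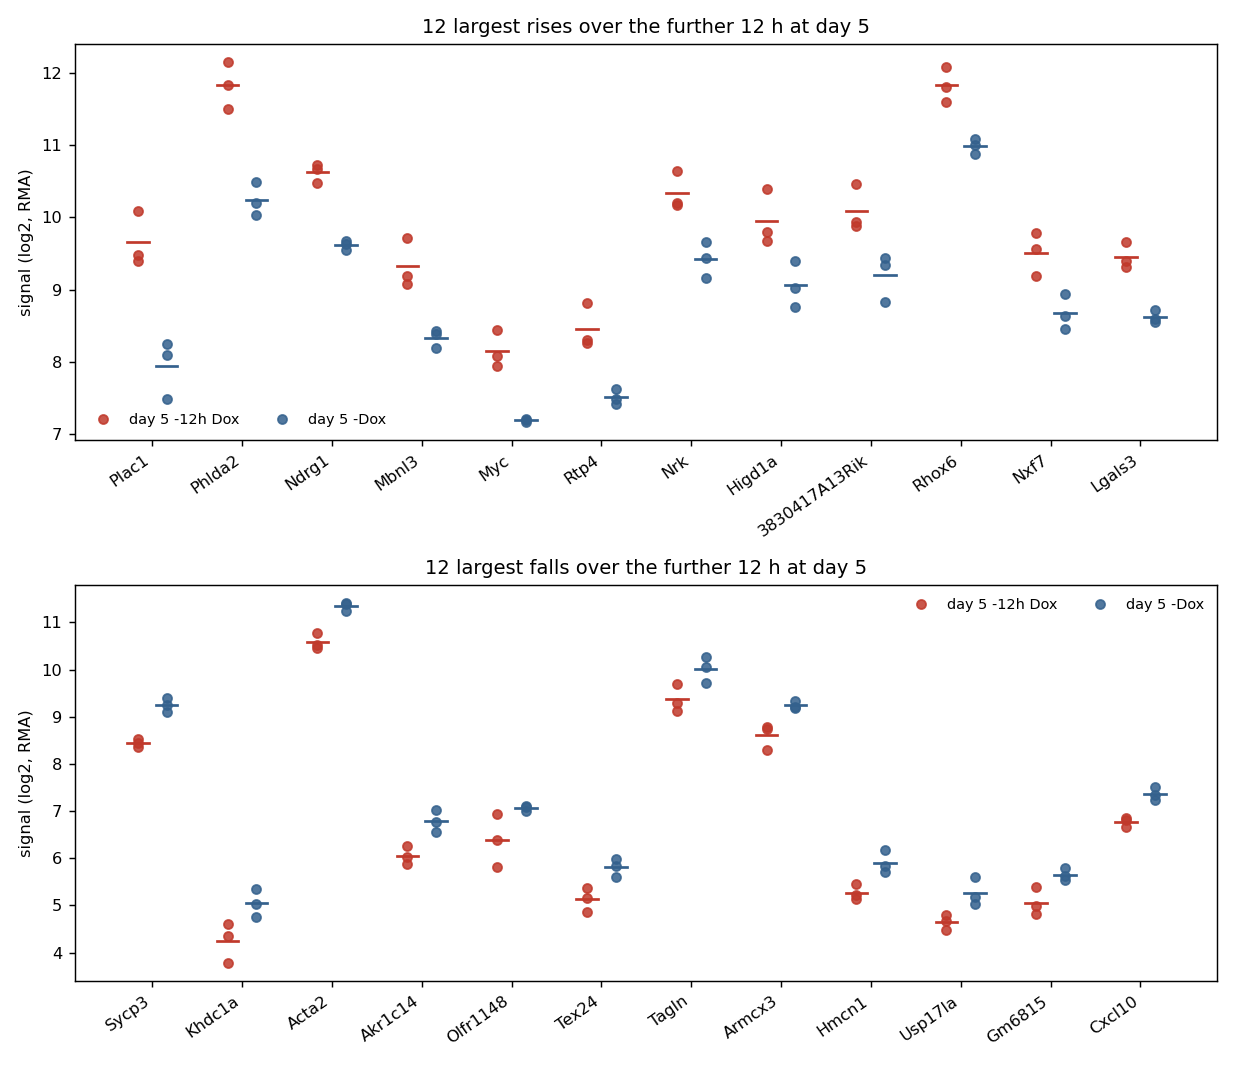
Log2 signal of each array for the 12 largest rises (top) and the 12 largest falls (bottom), with day 5 -12h Dox left of day 5 -Dox for each gene; points are arrays and bars are means of 3. The arrays of the 2 groups do not overlap for any gene shown, as the rule for choosing them required, and the widest gap in means is that of Plac1 at 1.71.

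Myc, the growth regulator, had fallen over the withdrawal and rose over the further 12 h. It had 7.94, 8.08 and 8.44 in day 5 -12h Dox, against 7.20, 7.17 and 7.19 in day 5 -Dox. All day 5 -12h Dox arrays were higher, by 0.97 ± 0.13 (adjusted p = 7.6e-05). At day 3 of withdrawal Myc stood at −1.28 relative to day 0 with doxycycline. Of the lists that hold Myc, no other member was called among 20 ERK targets, 17 targets of LIF and STAT3, and 14 Wnt targets, with medians of −0.03, −0.04 and −0.03.

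Genes of hypoxia and glycolysis rose in part. Of 18 measured, 6 rose and none fell, with a median of 0.18. Ndrg1, a stress gene that hypoxia induces, had 10.48, 10.67 and 10.73 in day 5 -12h Dox, against 9.67, 9.54 and 9.63 in day 5 -Dox (1.01 ± 0.069, adjusted p = 9.17e-10). It had the smallest adjusted p of the genes named here. Bnip3, which acts in the removal of mitochondria, rose by 0.54 ± 0.075 in 1 cluster and by 0.55 in its other one. Ankrd37 rose by 0.48 ± 0.086. Ldha, the lactate dehydrogenase subunit, had 12.51, 12.58 and 12.58 in day 5 -12h Dox, against 12.21, 12.21 and 12.15 in day 5 -Dox (0.37 ± 0.054, adjusted p = 0.000197). The phosphofructokinase genes Pfkl and Pfkp rose by 0.37 and 0.35. The glucose transporter gene Slc2a1, Vegfa and Pgk1 were at 0.12, 0.06 and 0.06 (adjusted p = 0.303, 0.716 and 0.608). The count was 4 to 7 with 1 array left out, and the median was 0.10 with both wide arrays left out.

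The core letters of the hypoxia response element, ACGTG, were searched on both strands in the 300 bases from 250 before to 50 after each gene's start, in RefSeq windows of the build GRCm38.p6. They are shown here for the 3 risen list members that held them, since these members moved together. Capitals mark each match, and matches on opposite strands overlap where the letters read CACGTG.
Bnip3, chr7:138909457-138909756, minus strand: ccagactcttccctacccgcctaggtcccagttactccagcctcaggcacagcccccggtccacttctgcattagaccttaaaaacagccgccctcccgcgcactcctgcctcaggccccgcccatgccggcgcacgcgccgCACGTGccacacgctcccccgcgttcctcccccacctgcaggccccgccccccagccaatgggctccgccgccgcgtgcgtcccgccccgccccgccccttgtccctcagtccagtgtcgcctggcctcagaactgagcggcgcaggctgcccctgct
Ankrd37, chr8:45999801-46000100, minus strand: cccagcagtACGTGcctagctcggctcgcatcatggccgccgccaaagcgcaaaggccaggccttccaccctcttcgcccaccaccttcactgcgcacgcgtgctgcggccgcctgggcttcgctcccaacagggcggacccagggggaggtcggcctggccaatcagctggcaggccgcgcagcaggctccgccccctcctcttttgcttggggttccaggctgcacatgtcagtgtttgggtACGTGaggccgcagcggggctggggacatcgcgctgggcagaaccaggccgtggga
Ldha, chr7:46845554-46845853, plus strand: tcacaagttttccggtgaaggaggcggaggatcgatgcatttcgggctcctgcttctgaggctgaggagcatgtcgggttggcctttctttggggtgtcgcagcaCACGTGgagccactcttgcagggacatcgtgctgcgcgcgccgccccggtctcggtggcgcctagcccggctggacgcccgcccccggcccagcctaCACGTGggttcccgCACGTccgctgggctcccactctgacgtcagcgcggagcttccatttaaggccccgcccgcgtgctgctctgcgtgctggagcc
Bnip3 and Ankrd37 held 2 matches each and this Ldha window held 5. Of the 6 risen list members 5 had a window, and 3 of those held a match. Of the 12 members that were not called 11 had a window, and 10 held a match. Of all 32851 windows, 6447 held one (19.6%). That share counts windows, whereas the list counts are of genes with a match in any of their windows, so the units differ. The match is a description of the letters and did not separate the risen members from the others.

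Some genes of DNA replication and of the respiratory chain rose in small steps, and their counts rest on single arrays. Of 22 S phase genes, 7 rose and none fell, 15 were not called, and the median was 0.21. Rrm2, a subunit of ribonucleotide reductase, had 10.83, 11.04 and 11.19 in day 5 -12h Dox, against 10.67, 10.41 and 10.51 in day 5 -Dox (0.49 ± 0.085, adjusted p = 0.00155). The others were the cyclin genes Ccne2 (0.52) and Ccne1 (0.29), the polymerase gene Pola1 (0.43), Tyms (0.36), Tk1 (0.34) and E2f1 (0.28). The count was 1 without replicate 2 or 3 of day 5 -Dox, and 3 and 1 without replicates 2 and 3 of day 5 -12h Dox. The median was 0.14 with both wide arrays left out. Of 20 nuclear genes of the respiratory chain, 5 rose and none fell, with a median of 0.18. They were Ndufa2 (0.45), Atp5o (0.39), Cox4i1 (0.32), Ndufa4 (0.24) and Atp5j (0.21). That count was 1 without replicate 2 or 3 of day 5 -Dox and 0 without replicate 3 of day 5 -12h Dox. With both wide arrays left out, the median was 0.11. Of 21 mitosis genes, Mki67 (0.31) and Cenpe (0.29) rose and none fell.

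Among pluripotency genes, Nanog was 10.07, 10.09 and 10.04 in day 5 -12h Dox, against 10.06, 9.86 and 9.64 in day 5 -Dox. The groups overlapped, and the change of 0.22 ± 0.080 was not called (adjusted p = 0.136). At day 3 the same 12 h gave −0.34, a fall (adjusted p = 0.0223), and the 2 changes differed (adjusted p = 0.0456). With the doxycycline pulse over the same 12 h of day 5, the level was 10.84 ± 0.15 (SD, n = 3). Pou5f1, which encodes Oct4, had 11.35, 11.61 and 11.36 in day 5 -12h Dox, against 11.17, 11.07 and 10.92 in day 5 -Dox (0.39 ± 0.088, adjusted p = 0.0139). Of 25 naive pluripotency genes, 4 rose and none fell, with a median of 0.13, namely Calcoco2 (0.67, with arrays that overlapped), Pecam1 (0.40), the Nodal co-receptor gene Tdgf1 (0.36) and Fbxo15 (0.32). Esrrb, Klf4 and Zfp42 were at 0.10, 0.22 and 0.28 (adjusted p = 0.632, 0.203 and 0.114). Of 20 general pluripotency genes, Pou5f1 and L1td1 (0.31) rose, and Sox2 was at 0.09 (adjusted p = 0.563). Pou5f1 at 10.92 to 11.61 and Sox2 at 11.42 to 11.76 lay well above the array medians, which averaged 7.56 ± 0.019 in day 5 -12h Dox and 7.59 ± 0.021 in day 5 -Dox.

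Acta2 and Tagln were among the 12 largest falls. Acta2, the smooth muscle actin, had 10.47, 10.78 and 10.53 in day 5 -12h Dox, against 11.25, 11.40 and 11.41 in day 5 -Dox (−0.76 ± 0.10, adjusted p = 8.79e-05). Tagln, an actin-binding protein of smooth muscle and fibroblasts, had 9.12, 9.70 and 9.28 in day 5 -12h Dox, against 9.73, 10.05 and 10.26 in day 5 -Dox (−0.65 ± 0.14, adjusted p = 0.00944). Its groups came within 0.1 of each other. Of 29 feeder fibroblast markers, 6 fell and none rose, with a median of −0.14. The others were the matrix protease gene Mmp2 (−0.49), Ccn1 (−0.42), the thrombospondin gene Thbs1 (−0.41) and Postn (−0.32). The collagens Col1a1, Col1a2 and Col3a1 and the surface marker Thy1 were at −0.12, −0.06, −0.08 and −0.04 and were not called. The mean level of the 29 markers was 7.81 to 7.92 in the day 5 -12h Dox arrays and 7.98 to 8.09 in the day 5 -Dox arrays. Fibroblasts grew with these cells, and the part of their number in these falls was not tested. In bulk RNA, fewer cells of a type and less RNA per cell cannot be told apart. The count was 3 and 2 without replicates 2 and 3 of day 5 -Dox, and 2 without replicate 3 of day 5 -12h Dox. The median was −0.04 with both wide arrays left out. Of 18 targets of Hippo and serum response signalling, 4 fell and none rose, namely Acta2, Tagln, Ccn1 and Ankrd1 (−0.55), while Ccn2, a standard target of the pathway, was at 0.01 (adjusted p = 0.978).

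Germline genes fell in part. Sycp3, which builds the axis of meiotic chromosomes, had 8.36, 8.45 and 8.52 in day 5 -12h Dox, against 9.41, 9.26 and 9.11 in day 5 -Dox (−0.81 ± 0.10, adjusted p = 4.44e-05). It was the largest fall of all. Of 18 germline and meiosis genes, Sycp3, Tdrd12 (−0.48) and Mov10l1 (−0.46) fell and none rose, with a median of −0.21. Other large falls were Khdc1a (−0.80), the steroid dehydrogenase gene Akr1c14 (−0.73), Olfr1148 (−0.69), Tex24 (−0.68), Armcx3 (−0.64), the matrix gene Hmcn1 (−0.63), Usp17la (−0.62), Gm6815 (−0.59) and the chemokine gene Cxcl10 (−0.58). Hmcn1 fell in 2 of its 77 clusters. Armcx3, of the mitochondrial outer membrane, fell in all 3 of its clusters. Usp17la has near-identical copies in the genome, so its value is uncertain. Several of these genes were dim, with Khdc1a between 3.78 and 4.61 in day 5 -12h Dox and between 4.75 and 5.35 in day 5 -Dox.

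**Figure D3:**
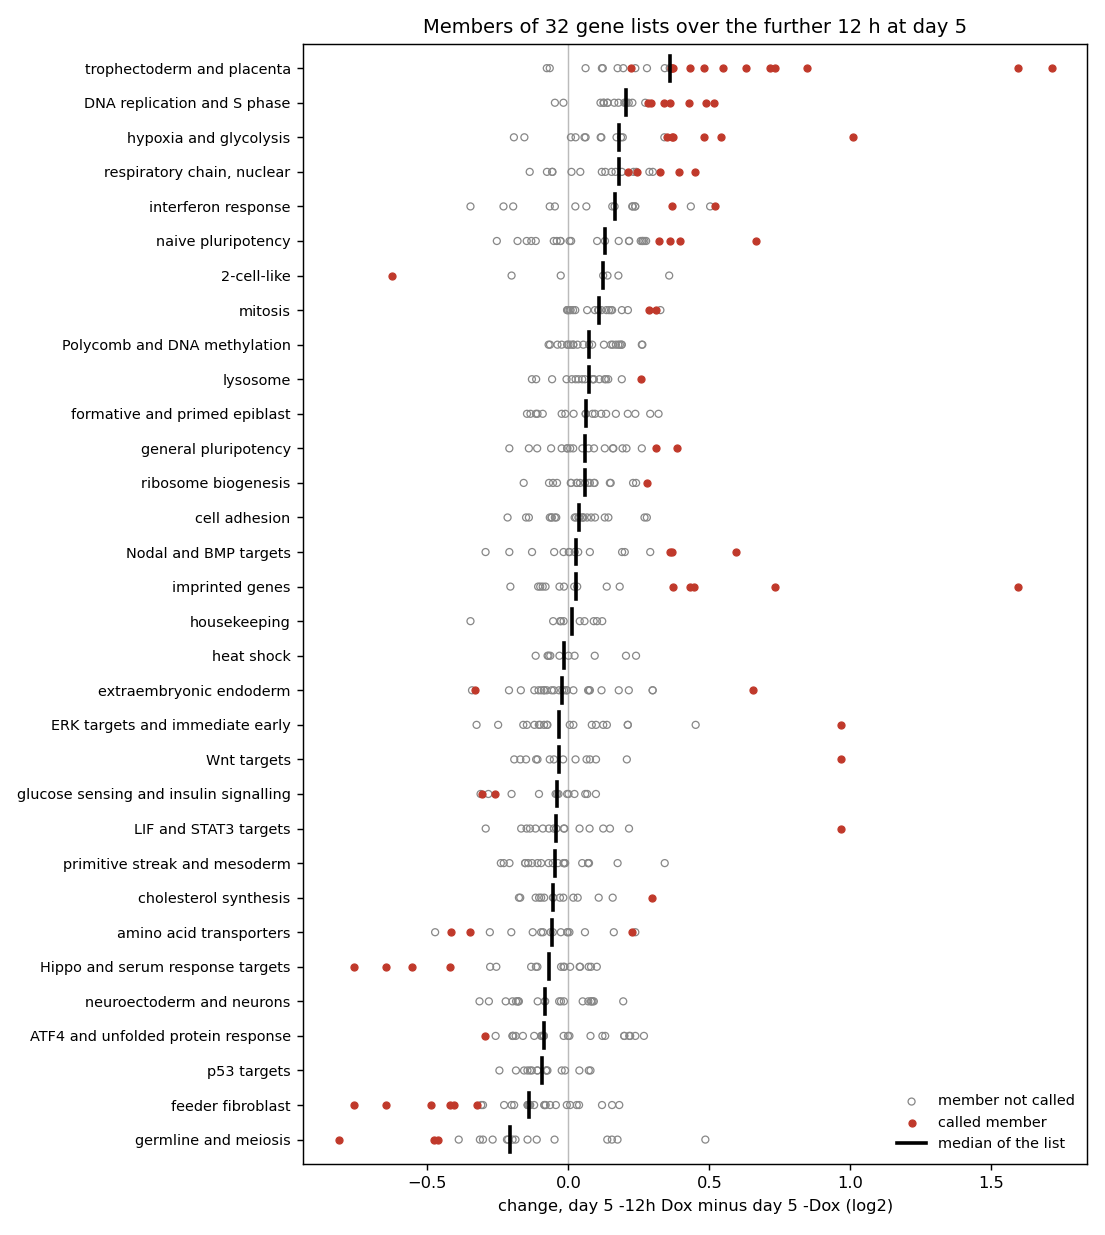
Change over the further 12 h at day 5 (log2, day 5 -12h Dox minus day 5 -Dox) of each measured member of the 32 gene lists; filled points passed the test, open points did not, and bars are list medians. The trophectoderm and placenta list has the highest median at 0.36 and the germline and meiosis list the lowest at −0.21.

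The remaining lists held few calls. Of 17 interferon response genes, the antiviral gene Bst2 (0.52) and Oasl2 (0.37) rose and none fell. Of 16 Nodal and BMP targets, Id3 (0.60, with arrays that overlapped), Tdgf1 and Msx2 rose and none fell, with the Nodal inhibitor gene Lefty1 at 0.19, which was not called. Of 27 extraembryonic endoderm genes, the endocytic receptor gene Cubn rose (0.65) and its partner Lrp2 fell (−0.33), with the endoderm factor Gata6 at −0.10 (adjusted p = 0.577). Of 15 genes of glucose sensing and insulin signalling, Txnip (−0.31) and Pik3ip1 (−0.26) fell. Of 18 amino acid transporters, Slc38a4 (0.23) rose, and Slc7a6 (−0.41) and Slc1a4 (−0.35) fell. Single members were called in the ATF4 (Psat1, −0.30), cholesterol synthesis (Mvd, 0.30), ribosome biogenesis (Pes1, 0.28), lysosome (Mcoln1, 0.26) and 2-cell-like (Usp17la) lists. No member was called among 19 formative and primed epiblast genes, 22 of primitive streak and mesoderm, 21 of neuroectoderm, 16 p53 targets, 10 heat shock genes, 23 of Polycomb and DNA methylation, 22 of cell adhesion and 10 housekeeping genes. Otx2 and Fgf5, of the epiblast list, were at 0.32 and −0.12 (adjusted p = 0.102 and 0.581).

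The same further 12 h was also measured at the earlier days. At day 1, 1462 clusters were called (6.25%), and at day 3, 396 (1.69%). These contrasts share no arrays with the one at day 5. Between day 5 and day 3, 124 clusters were called in both, 16.0% of those of day 5 and 31.3% of those of day 3, and all 124 changed in the same direction. Between day 5 and day 1, 113 were called in both, 14.6% of those of day 5 and 7.73% of those of day 1, and 81 of them changed in opposite directions. In the test of the difference itself, 1354 clusters differed between the changes of day 5 and day 1 (5.79%), and 24 between those of day 5 and day 3 (0.103%).

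The placental genes did not share 1 course. The 12 h change of Plac1 was 0.19 ± 0.16 at day 1, 0.45 ± 0.16 at day 3 and 1.71 ± 0.16 at day 5, and the day 5 change was larger than either (adjusted p = 0.000298 and 0.019). That of Phlda2 was −0.46 ± 0.17 at day 1, 0.35 ± 0.17 at day 3 and 1.59 ± 0.17 at day 5, and its day 5 change was also larger than either (adjusted p = 2.62e-05 and 0.0362). Calls by direction also differed between the days over all 23385 clusters. At day 1, 1174 rose and 288 fell, at day 3, 302 and 94, and at day 5, 543 and 230. Of the 24 placental genes, 5 rose at day 1, 6 at day 3 and 13 at day 5, and none fell on any of these days. Krt7 went the other way, with 0.63 at day 1 and 0.22 at day 5 (adjusted p of the difference = 0.00706). Of the 18 hypoxia and glycolysis genes, 4 rose at day 1, 10 at day 3 and 6 at day 5, with none falling. The 12 h change of Ndrg1 was −0.05 ± 0.069 at day 1, 0.93 ± 0.069 at day 3 and 1.01 ± 0.069 at day 5, and the changes at day 5 and day 3 were not called different (adjusted p = 0.943). Of the 29 feeder markers, 5 rose and none fell at day 1, whereas 6 fell and none rose at day 5. The 12 h change of Acta2 was 0.36 at day 1, 0.29 at day 3 and −0.76 at day 5, and the day 5 change differed from both (adjusted p = 7.54e-05 and 0.00225).

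**Figure D4:**
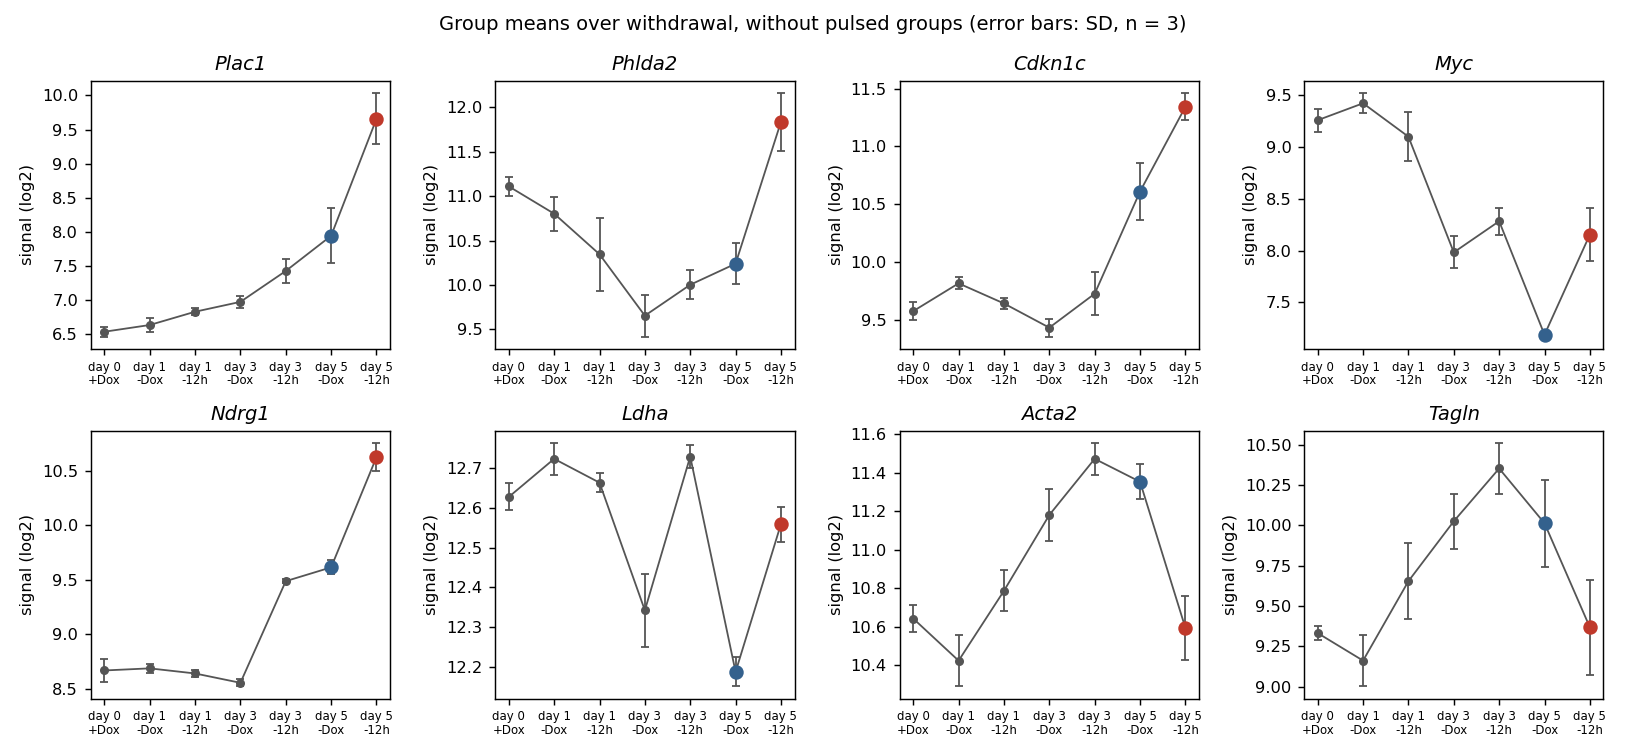
Mean log2 signal of 8 genes at day 0 with doxycycline, and at days 1, 3 and 5 of withdrawal each with its further 12 h, evenly spaced and without the pulsed groups; bars are SD over 3 arrays. The day 5 -12h Dox point is red and the day 5 -Dox point blue. Plac1 and Cdkn1c are highest in day 5 -12h Dox, and Acta2 and Tagln are lower there than in day 5 -Dox.

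The largest differences between days also took in microRNA genes of the miR-302 cluster, which is abundant in embryonic stem cells. The 12 h change of Mir302b was −0.29 at day 5 and 1.26 at day 1, and the difference of −1.56 was called (adjusted p = 0.0302). Mir302c and Mir302d differed by −1.39 and −1.38 (adjusted p = 0.0145 and 0.000709). None of the 3 was called in the day 5 change itself, and their signals there were low, between 4.13 and 5.98. The mature 3p strands are given from RefSeq with the build GRCm38.p6, all on the plus strand, with bases 2 to 8, the seed, in capitals.
mmu-miR-302b-3p, chr3:127545275-127545297: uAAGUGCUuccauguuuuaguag
mmu-miR-302c-3p, chr3:127545406-127545427: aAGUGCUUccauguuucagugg
mmu-miR-302d-3p, chr3:127545665-127545687: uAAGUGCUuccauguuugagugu
miR-302b and miR-302d share the seed AAGUGCU, and the entry of miR-302c starts 1 base later, so that its bases 2 to 8 read AGUGCUU. The array measures the gene's transcript and not the mature strand, and these close copies may share probes.

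The 12 h change was set beside the earlier change of withdrawal, from day 0 +Dox to day 3 -Dox, which uses none of the same arrays. At day 3, 7914 clusters were called (33.8%). Of the 773 clusters called at day 5, 494 were among them, 63.9% of those of day 5 and 6.24% of those of day 3. Of the 494, 362 (73.3%) moved against their earlier change. Of all day 3 calls 42.1% were lower, or 58.5% after median centring, so that a share of opposite signs also depends on how the calls of each contrast divide. The 362 were 265 that had fallen and then rose, and 97 that had risen and then fell. Another 115 rose both times and 17 fell both times. Myc, Phlda2 (−1.45 at day 3 and 1.59 over the 12 h), Lgals3 (−1.26 and 0.84) and Higd1a (−1.13 and 0.89) are of the first kind. Akr1c14 (1.00 and −0.73) and Acta2 (0.54 and −0.76) are of the second. Nrk (1.29 and 0.91) and Peg10 (1.27 and 0.43) rose both times. The share that moved against the earlier change was 63.5% to 79.8% with 1 array left out.

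**Figure D5:**
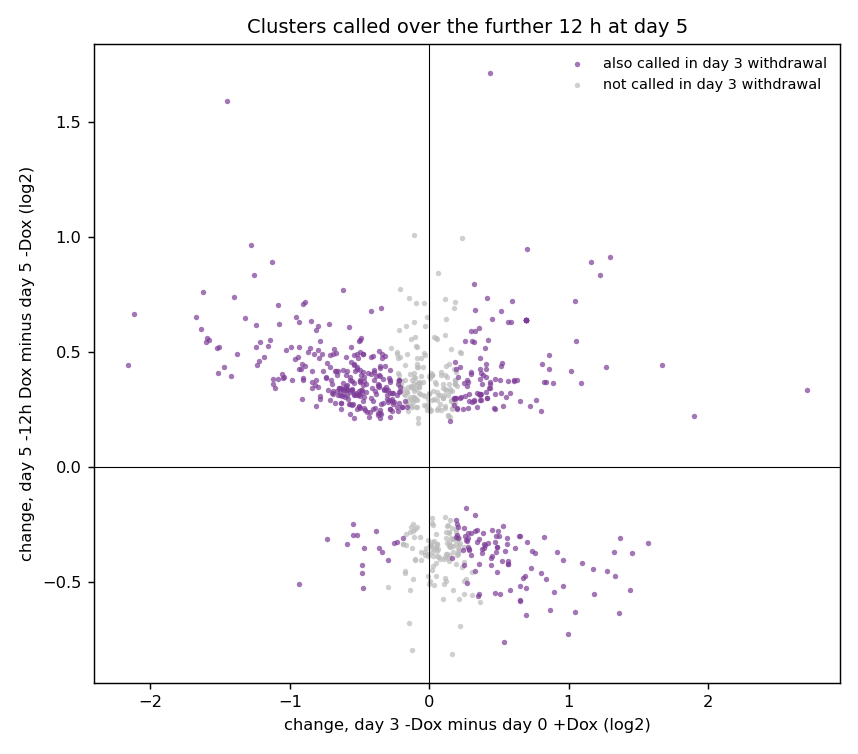
Each point is 1 of the 773 clusters called over the further 12 h at day 5, with its change at day 3 of withdrawal (day 3 -Dox minus day 0 +Dox, log2) on the horizontal axis and its 12 h change at day 5 (log2) on the vertical axis. Purple points, 494, were also called at day 3. Of these, 265 lie in the upper left and 97 in the lower right.

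The pulsed arrays of day 5 come from a further set of cells, for which the design text uses the day 5 -12h Dox cells as time-matched control. Plac1 had 9.88 ± 0.14, Mbnl3 9.48 ± 0.043 and Acta2 10.65 ± 0.24 in the pulsed group (SD, n = 3 each). The day 5 -12h Dox means were 9.66 ± 0.38, 9.33 ± 0.34 and 10.59 ± 0.17, and the day 5 -Dox means were 7.94 ± 0.40, 8.33 ± 0.13 and 11.35 ± 0.091. The pulse contrast uses the day 5 -12h Dox arrays too, and for these genes it was not called (adjusted p = 0.323, 0.431 and 0.722). Myc and Cdkn1c were higher with the pulse, by 0.44 (adjusted p = 0.0289) and 0.37 (adjusted p = 0.0274). Most shared calls went the other way. The pulse contrast called 2860 of the 23385 clusters. Among them were 172 of the 773, 22.3% of those of the 12 h change and 6.01% of those of the pulse. Of the 172, 126 moved against their 12 h change and 46 with it. The shared arrays enter the 2 contrasts with opposite signs, so this count is a description.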

How the data were processed

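The 30 arrays measured total RNA on Affymetrix Mouse Gene 1.0 ST arrays, 3 arrays in each of 10 groups taken from the sample titles. Per the submitters' processing notes, the authors used Affymetrix Expression Console and RMA, and the deposited values are log2 signals per transcript cluster. RMA subtracts background, gives the probe values of all arrays a like distribution and then combines the probes of a cluster. The combined values still differed in spread, with interquartile ranges from 2.39 to 2.94 over the 30 arrays. Software versions, annotation release and genome build are not given in the sources used here. Arrays have no read depth, and 3 arrays per group limit the precision. The 28815 clusters were named through the platform annotation: 21780 had 1 symbol, 1605 several and 5430 none. The 23385 with a symbol were tested, of which 238 repeat another cluster's values. Replicates of a group were compared, and none were identical.

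The model in limma 3.58.1 (R 4.3.3) took in the 30 arrays, gave each group its mean and had no further terms. P-values come from the moderated statistics of limma, with Benjamini-Hochberg adjustment over all tested clusters, and a call is an adjusted p under 0.05. A gene in a list is given by its cluster with the highest mean. The 32 gene lists were counted with no test of the list. The members and lists were chosen with earlier results of these data known, and the lists described first were picked after their counts were seen. Named genes are the 12 largest called rises and falls of singly named clusters whose arrays do not overlap between the groups, up to 4 called members of each list in each direction, a core set (Nanog, Pou5f1, Sox2, Esrrb, Klf4, Zfp42, Otx2, Fgf5, Gata6, Cdx2, Krt7, Krt18, Igf2, Lefty1, Myc), and the 8 largest called differences from day 1 and from day 3. Further list members, named to complete a count or as examples not called, were chosen after their values were seen. The fit was tested on simulated data.

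Alternatives were a fit of the 6 arrays alone, trend and robust variances, array weights, the interquartile range as a covariate, median centring, quantile normalization, the dimmest 40% of clusters left out, testing of unnamed clusters as well, a change of at least 2-fold, a block for the replicate number, and leaving out 1 array at a time. Leaving out both wide arrays, and the repeats for lists, directions and, without the wide arrays, named genes, were added after the data were seen.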

Additional observations from a re-analysis of the deposited data

Results flagged for a closer look

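Several results stood out because the further 12 h at day 5 differed from the same 12 h at an earlier day in a direct test of the difference. In all, 1354 clusters differed between day 5 and day 1, 647 higher at day 5 and 707 lower, and 24 differed between day 5 and day 3, 13 higher and 11 lower. Against day 1, the largest differences were Phlda2 (2.05), Mir302b (−1.56), the coatomer subunit gene Copz2 (−1.56), Plac1 (1.52), the tetraspanin gene Tspan2 (−1.48), Mir302c (−1.39), Mir302d (−1.38) and the pseudogene Olfr1372-ps1 (−1.38), all on the log2 scale as day 5 minus day 1. Copz2 was at −0.36 at day 5 (adjusted p = 0.104) and rose by 1.20 at day 1. Tspan2 fell by 0.53 at day 5 (adjusted p = 0.00734) and rose by 0.94 at day 1. Olfr1372-ps1 was at −0.56 at day 5 (adjusted p = 0.0939) and rose by 0.82 at day 1. Against day 3, they were Plac1 (1.26), Phlda2 (1.25), Acta2 (−1.05), Tagln (−0.97), Rtp4 (0.94), Pla2g7 (−0.93), the secreted FGF carrier gene Fgfbp1 (0.91) and the nuclear receptor gene Pparg (0.78). Rtp4 rose by 0.95 at day 5 and was at 0.01 at day 3. Fgfbp1 and Pparg rose by 0.59 each at day 5 and were at −0.32 and −0.19 at day 3, neither called. Pla2g7, a phospholipase gene, was at −0.23 at day 5 (adjusted p = 0.298) and rose by 0.70 at day 3.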

How the results depend on the processing

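The 773 calls became 19 with the 6 arrays alone, 4628 with array weights, 1332 with the interquartile range as a covariate (630 of them among the 773), 3 at a 2-fold minimum and 76 without both wide arrays, and 140 to 3134 with 1 array left out. The cause of these moves was not tested. The fit of 6 has fewer arrays and takes its spread from the 2 day 5 groups alone. At day 1 the 1462 calls became 4302 with array weights and 862 after median centring. At day 3 the 396 calls became 1228 with array weights, 634 after quantile normalization and 809 with the interquartile range. The 1354 differences from day 1 became 4130, 2187 and 3305 under array weights, quantile normalization and the interquartile range, and 646 to 1870 with 1 day 5 array left out. The 24 differences from day 3 became 966, 58 and 136 under the same 3, and 3 to 39 with 1 left out. The share moving against day 3 of withdrawal was 78.0% after median centring and 80.5% with the interquartile range, and 63.5% to 79.8% with 1 array left out. Without both wide arrays, 1 array of day 5 -12h Dox remained, so calls are not counted and only list medians are given. They were 0.30 for the placental list, 0.10 for hypoxia, 0.14 for S phase and 0.11 for the respiratory chain. For the imprinted genes the median was 0.01, and for the feeder markers −0.04. The medians of these 6 lists were all smaller in size than with all arrays. With 1 array left out, risen members of the first 5 of these lists were 10 to 16, 4 to 7, 1 to 10, 0 to 6 and 3 to 5. In those fits 2 to 8 feeder markers fell. The 6 arrays alone gave 4, 1, 0, 0 and 1 risen members of the same lists and 1 fallen feeder marker. Among the scalings tried, no called gene and no median of these 6 lists changed sign, though Cdx2 and Esrrb, not called, did. Lower calls outnumbered higher ones with the interquartile range and with array weights. Same-numbered arrays of the 2 groups deviated with correlations of −0.27, −0.05 and −0.18. These values show no pairing by number, but with 3 arrays a group of unequal spread they cannot exclude one. The replicate number as a block gave 677 calls. Of the 70 called genes, 10 kept their call with the 6 arrays alone, under the other settings and with each array left out in turn. Of these 10, 3 pass the 2-fold minimum. The 3 arrays per group and their unequal spread limit what can be said of small changes.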

Other observations

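Enzymes of glycogen metabolism, a list drawn up after their values were seen, held 4 members that rose and 1 that fell among 20 measured of 21, with a median of 0.11. Phosphoglucomutase Pgm1 had 10.43, 10.56 and 10.59 in day 5 -12h Dox, against 9.84, 9.76 and 9.60 in day 5 -Dox (0.80 ± 0.083). The branching enzyme Gbe1 had 8.11, 8.59 and 8.54 in day 5 -12h Dox, against 7.74, 7.79 and 7.50 in day 5 -Dox (0.74 ± 0.16). Glycogen synthase Gys1 rose by 0.69 ± 0.089 and the liver-type phosphorylase Pygl by 0.72 ± 0.12, while the muscle phosphorylase Pygm fell by 0.34. For the 4 risen genes the groups did not overlap. Over the same 12 h at day 3, Gbe1, Gys1 and Pgm1 rose by 1.56, 1.02 and 0.69, and Pygl was at 0.37 (adjusted p = 0.123). At day 1, 4 members of the list rose as well, with a median of 0.11. Pygl was among them at 0.46, whereas Gbe1, Gys1 and Pgm1 were at 0.12, −0.005 and 0.05 and were not called.

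By chromosome, the X held 32 of the 505 placed clusters that rose (6.34%) and 3.64% of those tested, and chromosome 7 held 71 (14.1%) against 8.58% of those tested. These shares are descriptions, since clusters of 1 chromosome or 1 gene family are not independent.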
